A study of Mus musculus with 6 samples.

Results

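The insulin-like growth factor 1 (IGF1) axis of whole mouse skin is described here through the ligand gene Igf1, the receptor gene Igf1r and the genes of the IGF binding proteins, Igfbp1 to Igfbp7. Members were taken by gene symbol, as every probe set whose symbol is one of these 9, and were chosen with earlier results of these data known. In the annotation, 8 of the 9 genes had a probe set of their own, 13 probe sets in all, out of 8251 named genes and 12422 probe sets on the array. Igfbp5 shared its probe set with Tmem119 in that annotation, so this probe set is given under both names and counted for neither. The 3 GC13 samples came from transgenic mice that overexpress Hoxc13, a homeobox gene active in hair follicles, and the 3 FVB samples from FVB mice, an albino inbred strain. Each array took total RNA of whole skin from mice 5 days old, an age of active follicle growth. The sources used here do not give the promoter that drives the transgene, the strain background of GC13, any pooling of animals or the sex of the mice. No label says whether each sample is a different mouse, and the p-values thus reflect only how far these samples spread, which may be technical.

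IGF1 is a secreted growth factor that binds the tyrosine kinase receptor encoded by Igf1r, which signals through insulin receptor substrates to the PI3K-AKT-mTOR and MAP kinase branches. In skin, Igf1 is made mainly by mesenchymal cells, among them the dermal papilla of the hair follicle, while keratinocytes carry the receptor, and the signal sustains follicle growth. The binding proteins hold IGF1 and IGF2 outside the cell, where they can block access to the receptor, prolong the life of the ligand or tether it to matrix, and proteases release the ligand by cutting them.

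The upstream sequences of Igfbp3, Igf1 and Igfbp4 are shown because these 3 genes have the member probe sets with the smallest p-values and because Hoxc13 encodes a DNA-binding protein. Each is the 250 bases before the annotated start in RefSeq, assembly GRCm38.p6, at chr11:7213924-7214173 (minus strand) for Igfbp3, chr10:87860861-87861110 (plus strand) for Igf1 and chr11:99040994-99041243 (plus strand) for Igfbp4, written 5′ to 3′. Capitals mark a match to one of the motifs searched below.
Igfbp3: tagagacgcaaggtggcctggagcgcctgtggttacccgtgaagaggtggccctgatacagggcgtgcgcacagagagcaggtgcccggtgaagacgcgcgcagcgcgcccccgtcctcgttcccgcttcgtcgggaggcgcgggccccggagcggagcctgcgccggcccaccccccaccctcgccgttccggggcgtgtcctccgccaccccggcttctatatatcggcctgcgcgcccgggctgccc
Igf1: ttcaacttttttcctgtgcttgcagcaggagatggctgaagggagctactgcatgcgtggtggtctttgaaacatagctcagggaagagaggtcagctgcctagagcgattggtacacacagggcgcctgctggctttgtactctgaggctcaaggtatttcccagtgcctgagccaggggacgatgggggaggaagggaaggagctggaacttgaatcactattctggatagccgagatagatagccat
Igfbp4: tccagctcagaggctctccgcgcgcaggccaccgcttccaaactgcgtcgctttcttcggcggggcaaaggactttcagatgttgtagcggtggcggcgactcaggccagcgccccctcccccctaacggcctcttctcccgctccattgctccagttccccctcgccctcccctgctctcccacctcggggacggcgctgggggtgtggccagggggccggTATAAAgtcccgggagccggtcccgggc
The windows of Igfbp3 and Igfbp4 were GC-rich, at 73.2% and 69.2% G and C, and that of Igf1 held 52.8%, against a median of 52.4% over the 32851 upstream windows of the table. Both strands were searched for TATAAA, a form of the TATA box, and for GGGCGG, the GC box. Other forms of the TATA box were not searched for. The search also took CAATAAA and TCGTAAA, which lie within motifs bound in vitro by HOX13 proteins. No match overlapped another motif. TATAAA began 28 bases before the start of Igfbp4 and 148 bases before that of Igfbp6, and 12.4% of all windows held it. GGGCGG was found in the windows of Igf1r, Igfbp7 and 1 of the 2 starts of Igfbp2, against 32.7% of all windows. Neither HOX13 motif was in any of the 10 member windows, against 4.2% of all windows for CAATAAA and 0.478% for TCGTAAA. These are matches of letters in 1 window per start and no measure of binding. Igfbp1 and Igfbp3 are next to each other on chromosome 11 among protein-coding genes, and so are Igfbp2 and Igfbp5 on chromosome 1.

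The deposited intensities summed to between 1640880 and 1736140 on the GC13 arrays and between 1626360 and 1644440 on the FVB arrays. The GC13 arrays were less alike than the FVB arrays, with mean correlations to their own group of 0.942, 0.909 and 0.929 for GC13 replicates 1 to 3, against 0.978 to 0.983 for FVB. To the other group, the GC13 arrays had 0.943, 0.937 and 0.922, so replicates 1 and 2 were no closer to their own group than to FVB. On the first principal component GC13 replicates 1 and 3 lay at -27.6 and -45.4 and replicate 2 at 33.9, on opposite sides of the FVB arrays at 3.35 to 17.8. The 3′ over 5′ intensity ratio of Gapdh, a measure of how evenly a transcript is covered, was 2.22, 9.58 and 2.19 in GC13 replicates 1 to 3, against 0.894 to 0.958 in FVB. For Actb it was 1.26, 3.80 and 1.43 in GC13, against 1.16 to 1.36 in FVB, so replicate 2 was high by both ratios and replicates 1 and 3 clearly by Gapdh alone. The Y-linked gene Eif2s3y had 3.25, 143 and 4.60 in GC13, against 69.4 to 98.9 in FVB, and Uty, also Y-linked, had 4.87, 34.7 and 7.19 in GC13, against 13.3 to 15.2 in FVB. Xist, made from the inactive X, had 9.15, 1.07 and 12.6 in GC13, against 9.95 to 11.9 in FVB. GC13 replicate 2 was thus high for both Y-linked genes and low for Xist, and replicates 1 and 3 were low for both Y-linked genes. Member values below are given with all arrays and without GC13 replicate 2 where that turns a call or a sign or moves the value far, and the part of RNA quality and of the sex-linked differences in the results was not tested. As markers of skin, Krt10 and Krt1, keratins of the differentiating epidermis, were bright on all arrays, with 1991 to 2324 and 1489 to 3661 in GC13 and 1986 to 2221 and 1216 to 1435 in FVB. The probe sets named Krt5 and Krt14, basal keratins, were dim on every array, at most 14.2 in GC13 and 8.45 in FVB. No probe set was named Hoxc13 in the annotation used, so the transgene itself was not analysed here.

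None of the 10 member probe sets bright enough to test passed the threshold of a Benjamini-Hochberg adjusted p of 0.05 in the comparison of GC13 with FVB by limma, a moderated linear model, where 0.472% of all 9316 tested probe sets passed, 0.0859% up and 0.386% down. At an unadjusted p under 0.05 there were 3 of the 10, or 30%, against 15.5% of all tested probe sets, and without GC13 replicate 2 there were 6, against 35.9%. With all arrays, 8 of the 10 lay above 0 and 2 below, where 57.4% of all tested probe sets lay above 0. The 10 had a median log2 fold change of 0.20, against 0.08 over all tested probe sets. That split and median rested on single arrays. Without GC13 replicate 1, 5 lay above 0 and 5 below, with a median of 0.04 against 0.10 over all, and without GC13 replicate 2, 9 lay above and 1 below, with a median of 0.43 against 0.02. Without centring of the arrays the split was 6 above and 4 below, with a median of 0.13 against 0.01. In 4 of the 10, or 40%, the intensities of the groups did not overlap, against 22.9% of all tested probe sets. Those were probe sets of Igfbp3, Igf1 and Igfbp7, with GC13 above, and of Igfbp4, with GC13 below. After centring 3 of the 4 remained apart and Igfbp7 did not, against 24.5% of all. Without GC13 replicate 2, both probe sets of Igfbp3 passed, 2 of the 10 or 20%, against 14.8% of all tested probe sets, 6% up and 8.8% down. With arrays weighted by their fit, 6 of the 10 passed, against 41.3% of all. The count over all probe sets rested on single arrays, with 44 calls on all arrays, 1379 without GC13 replicate 2, and 9 and 11 without GC13 replicates 1 and 3. Without any one of the FVB replicates limma gave 0 calls, with 768 to 946 probe sets at an unadjusted p under 0.05. The 44 calls were 8 up and 36 down, and 2 up and 26 down without centring.

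**Figure D1:**
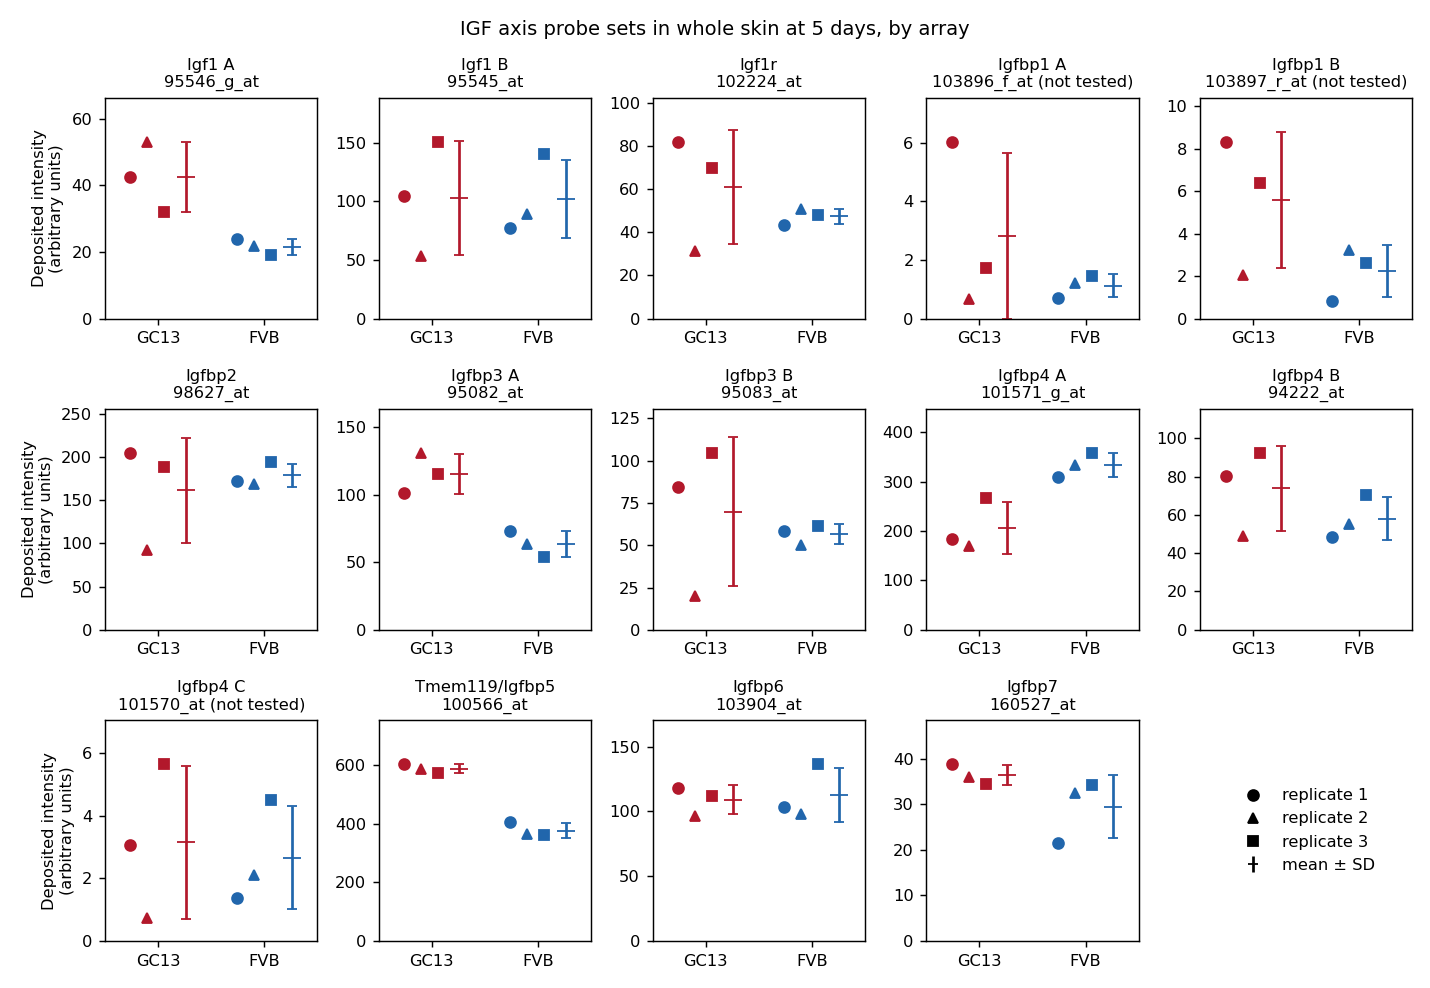
Deposited intensity (arbitrary units, linear axis from 0, a scale of its own in each panel) of the 13 member probe sets and the probe set shared by Tmem119 and Igfbp5, with GC13 left and FVB right. Points are single arrays and bars the mean ± SD of 3. The 4 GC13 triangles of Igf1r, Igfbp2, probe set B of Igf1 and probe set B of Igfbp3 lie below their groups' other arrays, at 31.5, 92.1, 53.2 and 20.1.

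Probe sets of 1 gene carry the letters A, B and C here, and the figures pair each letter with the array's own identifier. Igf1, the ligand gene, had a probe set A and a probe set B. Probe set A had intensities of 42.3, 52.9 and 31.9 in GC13 and of 23.8, 21.9 and 19.0 in FVB. All 3 GC13 arrays lay above all FVB arrays. Its mean was 42.4 ± 10.5 in GC13 and 21.6 ± 2.39 in FVB (SD, n = 3 each), a log2 fold change of 0.96 (SE 0.29, 95% interval 0.29 to 1.64, adjusted p = 0.191 in limma). Probe set B of Igf1 had 105, 53.2 and 151 in GC13 and 77.4, 89.3 and 140 in FVB, which overlap. Its log2 fold change was 0.01 (SE 0.34, 95% interval -0.78 to 0.80, adjusted p = 0.995 in limma). Without GC13 replicate 2 the fold changes of these probe sets were 0.70 and 0.32 on the log2 scale, with limma adjusted p of 0.0683 and 0.43. 

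Igf1r, the receptor gene, had a single probe set, with 81.7, 31.5 and 69.6 in GC13 and 43.5, 50.6 and 48.0 in FVB. GC13 replicates 1 and 3 were above every FVB array and GC13 replicate 2 was below every one. The log2 fold change was 0.32 (SE 0.29, 95% interval -0.36 to 1.003, adjusted p = 0.635 in limma), and without GC13 replicate 2 it was 0.63 (SE 0.17, adjusted p = 0.0525 in limma).

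Igfbp3, whose protein carries most circulating IGF in a complex with the acid-labile subunit and also acts locally, had the smallest p among the members. Its probe set A had 101, 131 and 115 in GC13 and 73.2, 63.8 and 53.8 in FVB. The groups did not overlap. The means were 116 ± 14.8 in GC13 and 63.6 ± 9.72 in FVB (SD, n = 3 each), a log2 fold change of 0.92 (SE 0.25, 95% interval 0.34 to 1.50, adjusted p = 0.156 in limma). Its probe set B had 84.5, 20.1 and 104 in GC13 and 58.5, 50.1 and 61.4 in FVB. Here GC13 replicates 1 and 3 were above every FVB array, and GC13 replicate 2 was the lowest of all. Its log2 fold change was 0.08 (SE 0.48, 95% interval -1.02 to 1.18, adjusted p = 0.951 in limma). Without GC13 replicate 2, Igfbp3 rose by both probe sets, with log2 fold changes of 0.73 (SE 0.19, adjusted p = 0.0495 in limma) and 0.69 (SE 0.17, adjusted p = 0.0425 in limma), beside 14.8% of all tested probe sets in that comparison.

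Igfbp4, whose protein restrains IGF until the protease PAPP-A cuts it, had probe sets with fold changes of opposite sign. Probe set A of Igfbp4 had 183, 170 and 266 in GC13 and 308, 334 and 357 in FVB, with every GC13 array below every FVB array. Its means were 206 ± 52.1 in GC13 and 333 ± 24.5 in FVB (SD, n = 3 each), a log2 fold change of -0.64 (SE 0.21, 95% interval -1.12 to -0.16, adjusted p = 0.213 in limma). Its log2 fold change was -0.61 without GC13 replicate 2 (adjusted p = 0.0647 in limma). Probe set B had 80.2, 49.1 and 92.2 in GC13 and 48.4, 55.4 and 70.1 in FVB, a log2 fold change of 0.38 (SE 0.24, adjusted p = 0.481 in limma). GC13 replicates 1 and 3 were above every FVB array there, and replicate 2 lay within the FVB range. Probe set C was too dim to test, with at most 5.65 in GC13 and 4.52 in FVB.

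The probe set shared by Tmem119 and Igfbp5 had 603, 587 and 572 in GC13 and 405, 364 and 361 in FVB. These groups stood clear of each other, with a narrow spread in each. Its mean was 587 ± 15.5 in GC13 and 377 ± 24.4 in FVB (SD, n = 3 each), a log2 fold change of 0.71 (SE 0.21, 95% interval 0.24 to 1.19, adjusted p = 0.182 in limma). Without GC13 replicate 2 it was 0.62 (SE 0.16), with a limma adjusted p of 0.0505. Tmem119 encodes a transmembrane protein of osteoblasts and microglia, and the Igfbp5 protein binds matrix. The annotation does not say which transcript the probes read.

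Igfbp2, a carrier prominent in fetal tissue, had 205, 92.1 and 188 in GC13 and 173, 169 and 194 in FVB, with GC13 replicate 2 far below the rest. Its log2 fold change was -0.15 (SE 0.27, 95% interval -0.77 to 0.47, adjusted p = 0.824 in limma) and 0.11 without that array. Igfbp6, whose protein prefers IGF2, had 118, 96.5 and 112 in GC13 and 103, 97.9 and 136 in FVB, with a log2 fold change of 0.04 (SE 0.21, 95% interval -0.45 to 0.53, adjusted p = 0.951 in limma). Igfbp7, which encodes a vessel and matrix protein of low affinity for IGF, had 38.8, 36.1 and 34.4 in GC13 and 21.6, 32.5 and 34.3 in FVB. GC13 replicate 3 and FVB replicate 3 differed by less than 1 unit there, and the log2 fold change was 0.39 (SE 0.24, 95% interval -0.16 to 0.93, adjusted p = 0.474 in limma). Igfbp1, a gene of the liver in the main, was dim by both of its probe sets, which were left out of the test. They had 0.684 to 6.03 and 2.06 to 8.32 in GC13, and 0.695 to 1.47 and 0.854 to 3.24 in FVB. With no filter on dim probe sets, their log2 fold changes were 0.55 and 0.85, with limma adjusted p of 0.507 and 0.313, beside 0.29% of 12422 probe sets past the threshold.

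**Figure D2:**
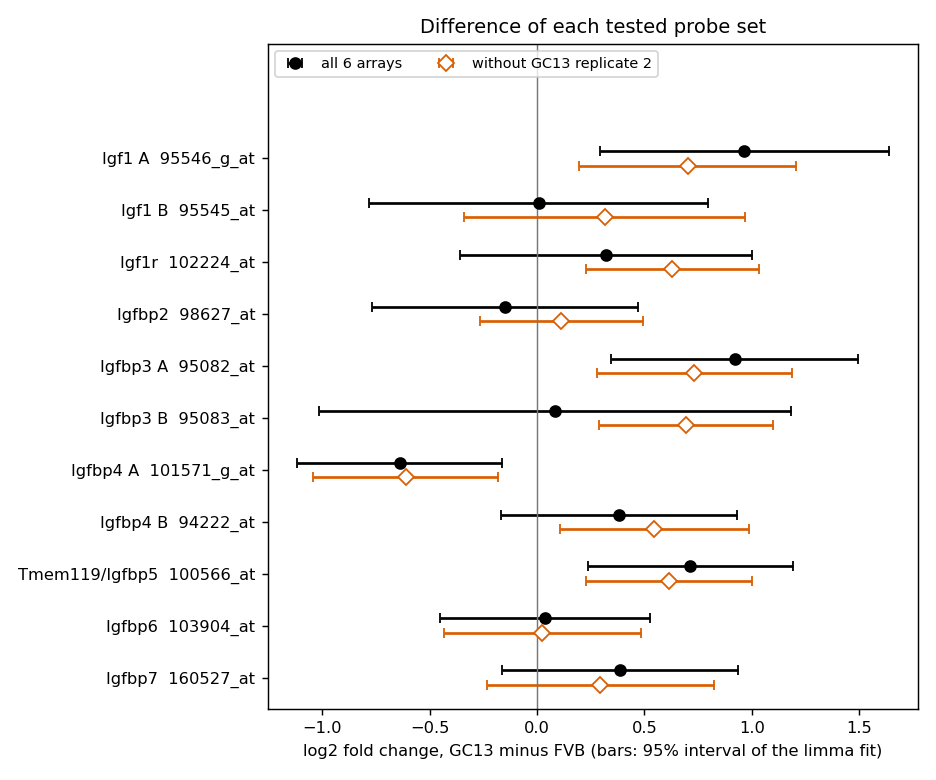
Log2 fold change of GC13 minus FVB for each tested probe set, with the 95% interval of the limma fit, for all 6 arrays (filled) and without GC13 replicate 2 (open). Without that array the value of probe set B of Igfbp3 is 0.69 in place of 0.08, and probe set A of Igfbp4 lies below 0 both times, at -0.64 and -0.61.

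Whether probe sets of 1 gene moved alike was compared within arrays, as the centred log2 value of the one minus that of the other, which shows unequal change and no difference in level. For Igfbp3, probe set A minus B, less its FVB mean, was 0.10, 2.43 and -0.02 in GC13 replicates 1 to 3, so the disagreement lay in GC13 replicate 2. The GC13 minus FVB difference was 0.84 with all arrays and 0.04 without replicate 2, and the exact two-sided permutation test with 3 against 3 arrays gave p = 0.6. For Igf1, probe set A minus B gave 0.84, 2.10 and -0.07 in GC13 and from -0.65 to 0.48 in FVB, an overlap of the groups. Its GC13 minus FVB difference was 0.96, or 0.39 without replicate 2 (exact permutation p = 0.3). For Igfbp4, probe set B minus A gave 1.33, 0.74 and 0.99 in GC13 and from -0.13 to 0.18 in FVB. The GC13 minus FVB difference was 1.02, and 1.16 without replicate 2, with an exact permutation p of 0.1, the smallest that 3 against 3 arrays allow. Adjusted over the 3 genes, these p-values were 0.6 for Igfbp3, 0.45 for Igf1 and 0.3 for Igfbp4 (exact permutation, Benjamini-Hochberg). Igfbp4 was thus the gene of the 3 whose probe sets parted on every GC13 array. Where the probes lie along each transcript was not analysed here. The Gapdh ratio was higher on all GC13 arrays and the Actb ratio clearly on GC13 replicate 2 alone, and their part in these disagreements was not tested.

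**Figure D3:**
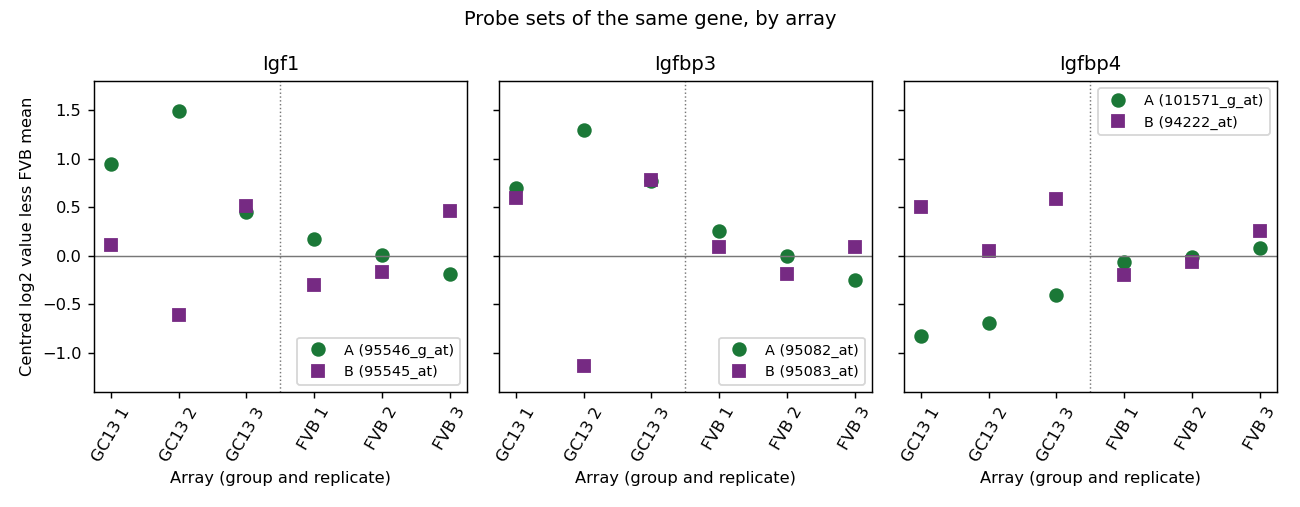
Centred log2 value of each array less the FVB mean, for both tested probe sets of Igf1, Igfbp3 and Igfbp4, with the GC13 arrays left and the FVB arrays right of the dotted line. On GC13 replicate 2 the Igfbp3 probe sets lie at 1.29 and -1.13 and the Igf1 probe sets at 1.49 and -0.61, while the Igfbp4 probe sets are parted on all 3 GC13 arrays.

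The rest of the IGF pathway was followed through 7 lists that held 100 genes in all, of which 76 had a probe set and 67 were bright enough to test. None passed in limma, where 0.472% of all tested probe sets did, and 14 of 67, or 20.9%, had an unadjusted p under 0.05, against 15.5% of all. The groups did not overlap for 16 genes, or 23.9%, against 22.9% of all, and the median log2 fold change was 0.18, against 0.08 over all tested probe sets. Without GC13 replicate 2, 6 rose and 3 fell, 13.4% against 14.8% of all tested probe sets. These shares lie near those of the array as a whole.

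Among ligands and carriers, Igf2, the second ligand, had 1463 ± 331 in GC13 and 973 ± 31.3 in FVB (SD, n = 3 each), with all GC13 arrays higher and a log2 fold change of 0.64 (SE 0.21, adjusted p = 0.226 in limma). Igfals, which encodes the acid-labile subunit that joins IGFBP3 in serum, had 9.62 ± 2.83 in GC13 and 17.2 ± 4.12 in FVB, with a log2 fold change of -0.66. Igf2r, the receptor that clears IGF2, had -0.18, or -0.53 without GC13 replicate 2, and Insr, the insulin receptor gene, was too dim to test. Of the 3 tested genes of this list 1 lay above 0 and 2 below, with a median of -0.18, or -0.53 without GC13 replicate 2. The growth hormone list, 11 tested genes with a median of -0.03, was led by Socs1, a cytokine signalling inhibitor, at -0.57, Stat5a, a transcription factor of the growth hormone receptor, at 0.63, and Gh at 0.25. Stat5a had 125, 55.8 and 156 in GC13 and 66.5 to 72.5 in FVB, and without GC13 replicate 2 it rose with a log2 fold change of 0.97 (adjusted p = 0.0163 in limma). Its other tested probe set had 0.29 with all arrays (adjusted p = 0.657 in limma).

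The next list held proteases that cut binding proteins and inhibitors of such proteases. Adam12, a metalloprotease gene whose product cleaves IGFBP3 and IGFBP5, had 40.5, 29.2 and 37.7 in GC13 and 15.3, 23.0 and 14.9 in FVB. Its groups did not overlap, and the log2 fold change was 1.02 (SE 0.23, adjusted p = 0.116 in limma) with all arrays and 1.06 (adjusted p = 0.0296 in limma) without GC13 replicate 2. Plau, the gene of the urokinase plasminogen activator, had 14.1 ± 6.01 in GC13 and 8.19 ± 2.15 in FVB (SD, n = 3 each), and Adam28 had 97.0 ± 45.3 in GC13 and 47.5 ± 18.3 in FVB. Their log2 fold changes were 0.68 and 1.02, both at a limma adjusted p of 0.296, and both rose without GC13 replicate 2. Stc1, an inhibitor gene of this list, and Adam9, a protease gene, fell in that comparison, by 1.12 and by 0.65 on the log2 scale. Stc1 was dim, with 2.63, 11.4 and 5.27 in GC13 and 7.46 to 13.6 in FVB. The 12 tested genes of this list had a median of 0.08, with 6 above 0 and 6 below. The list of the CCN family, matrix proteins once grouped with the binding proteins, had 6 tested genes, among them Kazald1, a gene outside that family. Their median was 0.19, with 3 above 0 and 3 below. Ccn4 had 0.50, Ccn5 0.65, Ccn3 0.37, Ccn1 -0.07, Ccn2 -0.001 and Kazald1 -0.19. Ccn5 rose without GC13 replicate 2, with 1.01 (adjusted p = 0.0222 in limma).

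Inside the cell, Grb10, an imprinted adaptor gene that restrains insulin and IGF receptor signalling, had 8.45 ± 5.42 in GC13 and 18.9 ± 2.91 in FVB (SD, n = 3 each), a log2 fold change of -1.03 (SE 0.35, adjusted p = 0.229 in limma). A further probe set of Grb10 had -1.68 (SE 0.32, adjusted p = 0.0797 in limma), in the same direction. Grb2, an adaptor that links receptors to RAS, had 104, 52.4 and 129 in GC13 and 49.9, 62.3 and 43.2 in FVB, and a log2 fold change of 0.85. Without GC13 replicate 2 Grb2 rose, with 1.12 (adjusted p = 0.0208 in limma). The phosphatase gene Ptpn11 had -0.50, and the 8 tested adaptors had a median of 0.12, or -0.07 without GC13 replicate 2. The measured insulin receptor substrate genes, Irs1, Irs2 and Irs3, were too dim to test. In the PI3K-AKT-mTOR branch, 12 of 17 tested genes lay above 0, where 57.4% of all tested probe sets did, and the median was 0.27. Mtor had 184, 172 and 183 in GC13 and 131, 125 and 108 in FVB, with no overlap and a log2 fold change of 0.64 (SE 0.20, adjusted p = 0.21 in limma), while its other probe set had 0.08. Pik3cd, a catalytic subunit gene of PI3K that was dim, had 11.2, 10.6 and 35.0 in GC13 and 11.3, 3.27 and 4.51 in FVB, which overlap. Its log2 fold change was 1.32 (SE 0.47, adjusted p = 0.244 in limma). Tsc2, an inhibitor of mTOR, had 0.54 and by its other tested probe set 0.26. Foxo3, a transcription factor held in check by AKT, fell by 0.68 on the log2 scale without GC13 replicate 2 (adjusted p = 0.0334 in limma). The MAP kinase branch had a median of 0.16 over 10 tested genes, or 0.03 without GC13 replicate 2. Nras had 0.56 with all arrays, Fos 0.76 and Egr1 0.26, and without GC13 replicate 2 these were 0.57, 0.42 and -0.03. A further probe set of Fos had 0.47 with all arrays, and the other probe set of Nras had -0.40.

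**Figure D4:**
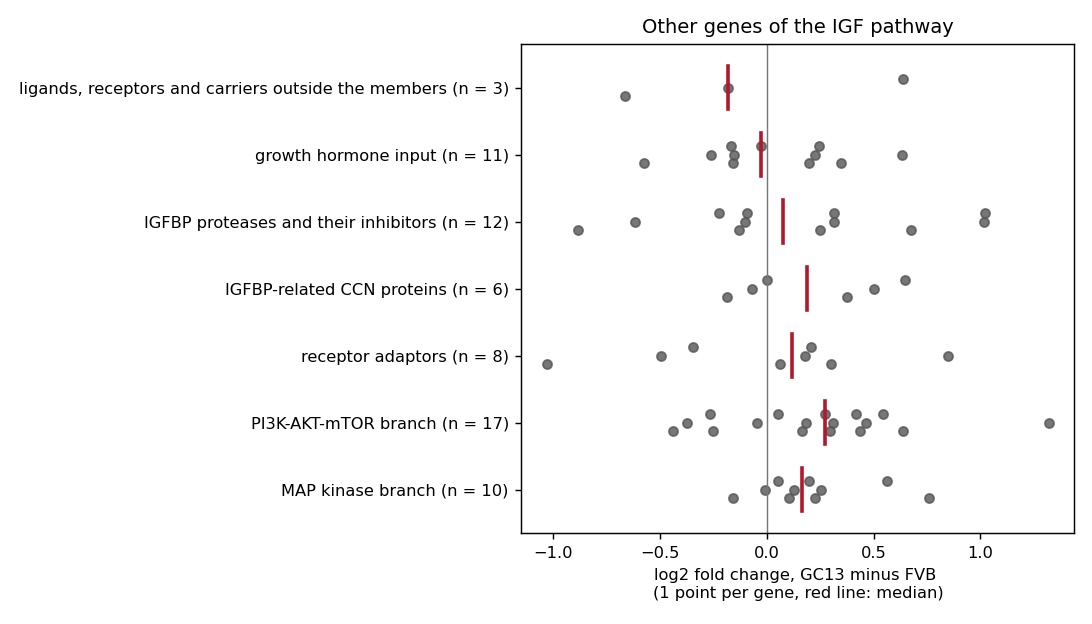
Log2 fold change of GC13 minus FVB for each tested gene of the 7 pathway lists, 1 point per gene, with the list's median as a red line. Medians run from -0.18 for the ligands, receptors and carriers to 0.27 for the PI3K-AKT-mTOR branch, and none of the 67 genes passed the threshold.

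Markers of other cell types also differed between the groups. Of 16 dermal fibroblast markers 14 lay above 0, where 57.4% of all tested probe sets did. Their median log2 fold change was 0.58, and their summed intensity was 15128 to 20058 in GC13 and 12295 to 13159 in FVB. None of the 16 passed over all probe sets, and without GC13 replicate 2 there were 6 that rose, in a comparison where 14.8% of all tested probe sets passed and 6% rose. The dermal papilla list had 6 of 9 tested genes above 0, a median of 0.20 and a summed intensity of 720 to 826 in GC13 and 557 to 607 in FVB. That separation rested on Vcan, a matrix proteoglycan gene, which rose with a log2 fold change of 1.32 (adjusted p = 0.0489 in limma, where 0.0859% of all tested probe sets rose). Without Vcan the sum was 344 to 460 in GC13 and 386 to 457 in FVB, an overlap. Sox2 was also higher on every GC13 array, with a log2 fold change of 0.87 (adjusted p = 0.173 in limma). Without GC13 replicate 2, 3 of the 9 rose, Vcan, Alpl and Sox2, and 0 fell, where 6% of all tested probe sets rose. The endothelial sum was 1170 to 1465 in GC13 and 923 to 1070 in FVB over 12 genes, and without Eng, a receptor gene of vessels, it was 847 to 1003 in GC13 and 732 to 878 in FVB, which overlap. Of the 12 endothelial genes 9 lay above 0 and 3 below, with a median of 0.40. In 6 of the 12 the groups did not overlap, against 22.9% of all tested probe sets. Eng, Emcn, Ramp2, Kdr and Vwf lay higher on every GC13 array, with log2 fold changes of 1.02, 0.60, 0.45, 0.39 and 0.40. Cldn5, an endothelial junction gene, lay lower on every GC13 array, with a log2 fold change of -0.65 (adjusted p = 0.212 in limma). The adipocyte sum was 4740 to 5257 in GC13 and 4015 to 4105 in FVB, and the skeletal muscle sum 3864 to 4427 in GC13 and 3548 to 3583 in FVB. Of 10 tested adipocyte genes 9 lay above 0 and 1 below, and of 17 muscle genes 14 above and 3 below. Myh4 and Actn3, muscle genes, were lower on every GC13 array, with -1.20 and -0.21, and their other probe sets had 1.09 and 0.24. Without GC13 replicate 2, 5 of the 17 rose and 1 fell, Myh4, with -1.71 (adjusted p = 0.00685 in limma). In that comparison 6% of all tested probe sets rose and 8.8% fell. The sum of hair matrix and root sheath markers was lower on every GC13 array, with 22258 to 25826 in GC13 and 26859 to 28329 in FVB. Of its 17 tested genes 12 lay below 0 and 5 above. Only 1 of the 17 passed, the inner root sheath keratin gene Krt72, which fell by 1.37 on the log2 scale (adjusted p = 0.0351 in limma, where 0.386% of all tested probe sets fell). Krt71, Krt25 and Krt27, also inner root sheath keratin genes, had 0.35, 0.05 and -0.03. In 10 of the 17 the groups did not overlap, each with GC13 below, against 12.3% of all tested probe sets. Among these were Foxn1 and Dlx3, with -2.60 and -0.85 (adjusted p = 0.1 and 0.126 in limma). Without GC13 replicate 2, 5 of the 17 fell and 0 rose, where 8.8% of all tested probe sets fell. The suprabasal keratinocyte sum was 13530, 7329 and 12716 in GC13 and 7702 to 8042 in FVB, and the basal keratinocyte sum was 1754, 1274 and 1644 in GC13 and 1221 to 1389 in FVB. Both overlapped with all arrays through GC13 replicate 2 alone and lay above FVB without it. In the suprabasal list 5 of 8 tested genes lay above 0 and 3 below. Flg and Krt1 were higher on every GC13 array, with log2 fold changes of 1.05 and 1.11. Krt2 and Tgm3 were lower on every GC13 array, with -0.63 and -0.76. A further probe set of Krt2 had -1.95 (adjusted p = 0.0294 in limma, where 0.386% of all tested probe sets fell). The macrophage sums overlapped, with 5 of 9 tested genes above 0 and 4 below. C1qa and C1qb were lower on every GC13 array, with -1.87 and -0.56, and Adgre1 was higher on every one, with 0.76. A further probe set of C1qb had 0.74. Without GC13 replicate 2, C1qa and Lyz2 fell, with -1.51 and -1.04 (adjusted p = 0.0214 and 0.0125 in limma, where 8.8% of all tested probe sets fell). Of the 6 measured hepatocyte markers 4 were too dim to test, and the summed intensity was 23.2 to 54.1 in GC13 and 27.5 to 41.0 in FVB, beside the dim Igfbp1. No measured marker of these lists was at 0, and the lowest mean over the arrays was 0.491, in the hepatocyte list. In whole skin, fewer cells of a type and less RNA per cell cannot be told apart. The part of cell makeup in the values of Igfbp3, Igf1 and the other members was not tested.

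The genes whose pattern over the 6 arrays came closest to a member were found by the root mean square difference of centred log2 values, each probe set less its own mean. For probe set A of Igfbp3 they were Ubap2l, Map2k6 and Fkbp7, at 0.0978, 0.108 and 0.109. For Igf1r they were Tpm3, Nsdhl and Des, at 0.0629, 0.0694 and 0.0732, each lowest on GC13 replicate 2. Tpm3 had 124, 47.0 and 114 in GC13 and 72.3 to 78.6 in FVB. For probe set B of Igf1 they were Pycrl, Rac2 and Alppl2, at 0.0866, 0.107 and 0.109. With 9316 probe sets and 6 arrays these distances describe the arrays and carry no test.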

How the data were processed

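Total RNA of whole skin was measured on 6 single-sample arrays. The deposited intensities, 1 per probe set and array, are linear, and their means without the highest and lowest 2% lie near 100 on every array, a scaling by the authors. The sources used here name no software, background correction or detection call, so signal over background is unknown. Groups and replicate numbers came from the sample titles.

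After 66 control probe sets were left out, log2(intensity + 2) was computed and each array centred on its median, since medians differed by up to 0.345. Probe sets in the lowest 25% by mean were dropped, leaving 9316. A fold change on this scale understates that of dim probe sets. Names came from the platform annotation, updated by Entrez identifier with RefSeq (GRCm38.p6). Of 12422 probe sets, 10833 had 1 symbol, 396 several and 1193 none. The fit of GC13 against FVB used limma 3.58.1 (R 4.3.3), two-sided, with Benjamini-Hochberg adjustment over all tested probe sets. The script was tested on simulated data.

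The text names all members, the 3 genes with the smallest p in each pathway list by their brightest probe set, and the 3 closest in pattern to Igf1, Igf1r and the binding protein gene with the smallest p. Stc1, Adam9, Foxo3, the marker genes named, the upstream motifs and the within-gene comparison of probe sets were added after values were seen. Members and lists were chosen with earlier results of these data known. Alternatives changed the pseudocount, the filter or the scaling, or added a variance trend, array weights, the replicate number as a block, or left out each array.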

Additional observations from a re-analysis of the deposited data

How the results depend on the processing

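The count of probe sets past the threshold, 44, was 83 and 119 with pseudocounts of 16 and 32, 23 with a stricter filter on dim probe sets, 28 without centring, 78 with the replicate number as a block and 3850 with array weights, and it ran from 0 to 1379 when single arrays were left out. The count of member probe sets, 0, was 6 with array weights, in a fit where 41.3% of all probe sets passed, and ran from 0 to 2 without single arrays, and that of other IGF pathway genes, 0, was 23 and ran from 0 to 9. Array weights ran from 0.107 for GC13 replicate 2 to 4.12 for GC13 replicate 1. The cause of these changes was not tested.

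The directions of Igf1r, Igfbp7, probe set A of Igf1, probe set A of Igfbp3 and both tested probe sets of Igfbp4 were the same under every alternative that tested them. Without centring the log2 fold change was -0.036 for Igfbp6 and -0.065 for probe set B of Igf1, and with array weights it was 0.21 for Igfbp2. Over the fits that left out single arrays, it ran from -0.063 to 0.17 for Igfbp6, from -0.25 to 0.32 for probe set B of Igf1, from -0.34 to 0.11 for Igfbp2 and from -0.27 to 0.69 for probe set B of Igfbp3, each across 0. Same-numbered samples of GC13 and FVB did not all deviate together, with correlations of -0.07, 0.18 and 0.36, and GC13 replicate 1 correlated best with FVB replicate 3, so the numbers were not taken as pairs. With the replicate block, 0 member probe sets and 0 other pathway genes passed in limma, with 3 and 13 at an unadjusted p under 0.05. The sums of 2 marker lists, dermal papilla and endothelial, no longer stood apart without the gene whose group means differed most, an alternative chosen after seeing the data. Intensity over background is unknown, which limits what Igfbp1 and probe set C of Igfbp4 can show.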
